A study of Mus musculus with 12 samples.

Results

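The GATA transcription factors Gata1 to Gata6 were followed through the anterior and posterior samples of mouse embryos that lack Lhx1 in the epiblast and of their controls. The 6 genes were chosen by gene name, from 19060 gene names on the array, and each was represented by 1 probe. All 6 probes passed the filter on dim probes, as did 17041 of all 30344 probes; it asked for 3 or more of the 12 arrays with a detection p below 0.05. They were contrasted as 3 blood and ectoderm members, Gata1 to Gata3, and 3 heart and endoderm members, Gata4 to Gata6. Total RNA was hybridised to 12 Illumina bead arrays in 4 groups of 3: anterior Lhx1epiCKO, anterior control, posterior Lhx1epiCKO and posterior control. Lhx1epiCKO embryos were Lhx1-/flox; Meox2+/Cre, with one Lhx1 allele null and the other floxed. Control embryos were Lhx1+/flox; Meox2+/Cre, so they too carried the Meox2 Cre allele and a floxed Lhx1 allele. Cre from the Meox2 locus acts in the epiblast, so visceral endoderm is not expected to lose Lhx1 by it. All embryos were taken at E7.75 (days of gestation), and each sample was a pool of 5 anterior or 5 posterior parts. A value is therefore an average over 5 embryos and over all tissues of a part, and the spread is that between pools.

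GATA factors are zinc finger proteins that bind DNA sites built around the letters GATA, and each member is used by a different set of lineages. Gata1 drives erythroid and megakaryocyte differentiation, Gata2 is needed by early blood progenitors and the endothelium that gives rise to them, and Gata3 is best known from T cells and from trophoblast and surface ectoderm. Gata4 acts in heart precursors and in the endoderm beneath them, Gata5 in endocardium and gut endoderm, and Gata6 in primitive and visceral endoderm and in heart mesoderm. At this age the heart precursors and anterior endoderm lie at the front of the embryo, while primitive blood forms in the extraembryonic yolk sac.

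The promoter windows of Gata5, Gata3 and Gata1 are shown because Gata5 was the member that passed the test between regions and because the windows of the other two held the only motif letters found. Each window is from RefSeq on GRCm38.p6 and holds 300 bases around the annotated start, written along the gene's strand. The windows are chr2:180334630-180334929 for Gata5, chr2:9878551-9878850 for Gata3 and chrX:7967861-7968160 for Gata1, all on the minus strand. Capitals mark matches to the GATA letters, which are A or T followed by GATAA or by GATAG, or to the homeodomain letters, which are TAATT followed by A or by G. Both sets were searched on both strands.
Gata5: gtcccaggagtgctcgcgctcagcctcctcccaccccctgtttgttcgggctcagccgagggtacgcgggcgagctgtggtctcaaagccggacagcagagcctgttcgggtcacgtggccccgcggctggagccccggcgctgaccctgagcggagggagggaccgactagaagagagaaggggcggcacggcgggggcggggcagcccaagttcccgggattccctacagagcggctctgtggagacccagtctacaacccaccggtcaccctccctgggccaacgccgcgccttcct
Gata3: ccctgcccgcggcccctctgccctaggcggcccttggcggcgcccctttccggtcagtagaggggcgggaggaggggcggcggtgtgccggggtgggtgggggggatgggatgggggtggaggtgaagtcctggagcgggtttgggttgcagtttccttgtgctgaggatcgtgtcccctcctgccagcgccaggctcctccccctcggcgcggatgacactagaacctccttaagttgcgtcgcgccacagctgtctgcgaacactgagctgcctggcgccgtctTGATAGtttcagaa
Gata1: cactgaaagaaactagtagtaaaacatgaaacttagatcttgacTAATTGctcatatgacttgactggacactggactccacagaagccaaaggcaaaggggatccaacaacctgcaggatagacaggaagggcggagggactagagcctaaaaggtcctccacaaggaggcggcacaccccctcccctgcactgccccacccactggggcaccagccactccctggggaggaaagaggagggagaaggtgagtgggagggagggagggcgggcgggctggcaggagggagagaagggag
The Gata3 window held TGATAG at base 287, which is 36 bases past the start. The Gata1 window held TAATTG at base 45. The Gata5 window held neither set of letters, and neither did the 2 windows of Gata2, at chr6:88193641-88193940 and chr6:88198414-88198713 on the plus strand. Of 32851 promoter windows of 300 bases, 29.8% held the GATA letters and 12.4% the homeodomain letters. The GC content was 69.7% in the Gata5 window, 67.3% in the Gata3 window and 57.3% in the Gata1 window. Promoter windows of Gata4 and Gata6 were not used here.

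Lhx1, the deleted gene, checked the labels. Its log2 level was 6.84, 6.65 and 7.09 in anterior Lhx1epiCKO samples, against 8.13, 8.25 and 8.44 in anterior control samples. In posterior samples it was 6.85, 7.18 and 7.30 in Lhx1epiCKO samples, against 8.54, 6.90 and 8.35 in control samples. The array labelled posterior control replicate 2 thus read at the level of the mutants. Posterior Lhx1epiCKO replicate 3 stood apart from the other arrays of its group: 779 probes differed by over 1 log2 unit from their mean. The same count was 258 and 279 for its group mates, whose comparison means include replicate 3, and 0 to 35 in the other groups. Posterior control replicate 2 and posterior Lhx1epiCKO replicate 3 are called the doubted arrays. All samples carry the label embryonic head. The head marker Otx2 read 9.94 to 10.41 in anterior Lhx1epiCKO, 11.2 to 11.59 in anterior control, 7.08 to 8.48 in posterior Lhx1epiCKO and 7.94 to 8.79 in posterior control samples, while the forebrain markers Six3 and Lhx2 were above background on no array. The number of arrays limits the precision. Between 14243 and 16238 probes were above background on an array.

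The anterior samples were set against the posterior samples of the same genotype to ask which GATA factors mark the front of the embryo. Gata5 was higher in anterior samples of both genotypes, and it was the only GATA factor that passed the test. It read 7.51, 7.21 and 7.22 on the log2 scale in anterior Lhx1epiCKO samples, against 6.46, 6.57 and 6.61 in posterior Lhx1epiCKO samples. In control embryos it read 7.41, 7.24 and 7.52 in anterior samples, against 6.70, 6.76 and 6.66 in posterior samples. Every anterior pool was above background for Gata5 and no posterior pool was, and the 6 anterior values lay above the 6 posterior values without overlap. Anterior minus posterior was 0.77 ± 0.11 in Lhx1epiCKO embryos (SE; 95% interval 0.53 to 1.01; limma, adjusted p = 0.00303) and 0.69 ± 0.11 in control embryos (0.45 to 0.93; limma, adjusted p = 0.00343). Because the posterior pools were not above background, these differences are fitted values near the floor of the array. Gata5 also passed the filter on dim probes only through its anterior arrays, so being above background there adds no separate support. With no filter on dim probes the adjusted p (limma) was 0.00279 in Lhx1epiCKO and 0.003 in control embryos. Against the lowest signal counted as above background, Gata5 was at least 1.38-fold higher in anterior Lhx1epiCKO samples and at least 1.46-fold higher in anterior control samples.

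Thus 1 of 6 GATA probes was called between regions in each genotype. Over all probes, 1.27% were called in Lhx1epiCKO embryos, 0.417% as higher in anterior samples, and 3.01% were called in control embryos, 1.36% as higher. The call in control embryos held in 21 of 21 alternative settings. In Lhx1epiCKO embryos it held in 20 of 21: with only the 6 arrays of that genotype in the fit the difference was again 0.77 but the adjusted p was 0.0626. In these bulk pools, fewer Gata5-expressing cells and less Gata5 RNA per cell cannot be told apart. The number of probes above background moved with region too, at 15416 to 16238 on anterior and 14243 to 14869 on posterior arrays, and its part in the result was not tested.

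**Figure D1:**
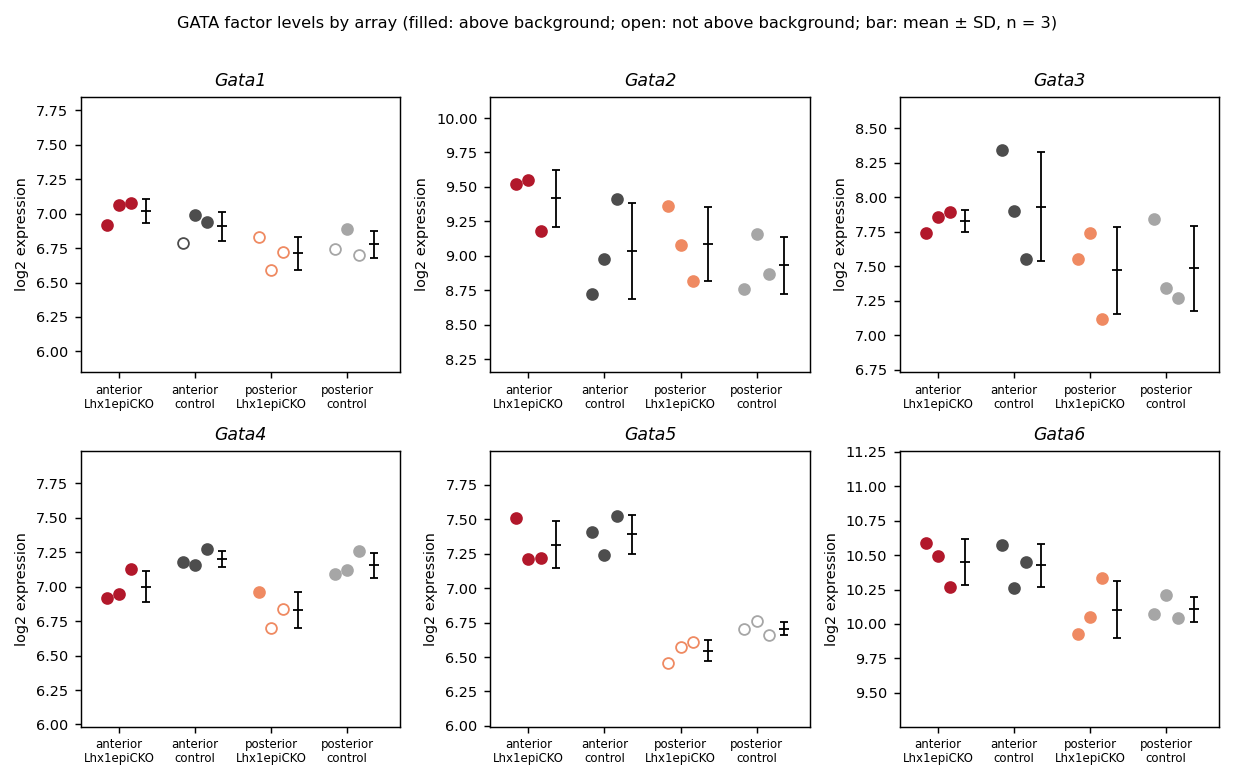
Log2 expression of Gata1 to Gata6 on each of 12 arrays, with the 4 groups along the horizontal axis and the mean ± SD of 3 arrays beside each group. Filled points are above background and open points are not; all 6 posterior Gata5 points are open and lie below every anterior point.

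Gata6, which specifies primitive endoderm and acts early in heart mesoderm, was above background on all 12 arrays. It read 10.59, 10.49 and 10.27 in anterior Lhx1epiCKO samples, against 9.93, 10.05 and 10.33 in posterior Lhx1epiCKO samples. In control embryos it read 10.57, 10.26 and 10.45 in anterior samples, against 10.07, 10.21 and 10.04 in posterior samples. The control groups did not overlap, while in mutants posterior replicate 3 lay among the anterior values. Anterior minus posterior was 0.34 ± 0.13 in Lhx1epiCKO embryos (0.06 to 0.62; limma, adjusted p = 0.311) and 0.32 ± 0.13 in control embryos (0.03 to 0.60; limma, adjusted p = 0.303), so Gata6 did not pass in either genotype. Without posterior Lhx1epiCKO replicate 3 the mutant difference was 0.46 (limma, adjusted p = 0.0819).

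Averaged over both genotypes, a contrast added after these values were seen, Gata5 differed between regions by 0.73 ± 0.08 (limma, adjusted p = 8.02e-05) and Gata6 by 0.33 ± 0.09 (limma, adjusted p = 0.0575). Gata5 was the 1 GATA probe called there, where 5.68% of all probes were. Gata6 passed in this contrast once posterior Lhx1epiCKO replicate 3 was left out (0.39, adjusted p = 0.00824), without both doubted arrays (0.41, adjusted p = 0.00917) and with array weights (0.36, adjusted p = 0.038).

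Gata4, a regulator of heart and ventral endoderm, was the flattest of the heart and endoderm members between regions. Its values were 6.92, 6.95 and 7.13 in anterior Lhx1epiCKO and 6.96, 6.70 and 6.84 in posterior Lhx1epiCKO samples. They were 7.18, 7.16 and 7.27 in anterior control and 7.09, 7.12 and 7.26 in posterior control samples. The regions overlapped in both genotypes, with a difference of 0.17 ± 0.10 in Lhx1epiCKO embryos (limma, adjusted p = 0.535) and 0.05 ± 0.10 in control embryos (-0.18 to 0.27; limma, adjusted p = 0.929).

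Among the blood and ectoderm members no probe passed between regions. Gata1, the erythroid regulator, was close to background: it was above it on 3 anterior Lhx1epiCKO, 2 anterior control, 0 posterior Lhx1epiCKO and 1 posterior control array. It read 6.92, 7.06 and 7.08 in anterior Lhx1epiCKO samples, against 6.83, 6.59 and 6.72 in posterior Lhx1epiCKO samples. These groups did not overlap, and the difference was 0.31 ± 0.10 (0.08 to 0.53; limma, adjusted p = 0.237). Measured against the floor, the bound for Gata1 was 1.12-fold higher in the anterior mutant samples, for a difference that did not pass. Like Gata5, Gata1 reached the filter on dim probes only with its anterior arrays. Being above background there thus adds no separate support. In control embryos Gata1 read 6.79, 6.99 and 6.94 in anterior and 6.74, 6.89 and 6.70 in posterior samples, which overlapped, with a difference of 0.13 ± 0.10 (limma, adjusted p = 0.706).

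Gata2, which sustains early blood progenitors, was above background on every array. It read 9.52, 9.55 and 9.18 in anterior and 9.36, 9.08 and 8.82 in posterior Lhx1epiCKO samples. In control embryos it read 8.72, 8.98 and 9.41 in anterior and 8.76, 9.16 and 8.87 in posterior samples. The regions overlapped in both genotypes, and anterior minus posterior was 0.33 ± 0.19 in Lhx1epiCKO embryos (limma, adjusted p = 0.499) and 0.10 ± 0.19 in control embryos (limma, adjusted p = 0.911). Without both doubted arrays these were 0.20 (limma, adjusted p = 0.676) and 0.21 (limma, adjusted p = 0.573).

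Gata3, a gene of surface ectoderm and trophoblast, was also above background on every array. It read 7.74, 7.86 and 7.89 in anterior and 7.55, 7.74 and 7.12 in posterior Lhx1epiCKO samples. In control embryos it read 8.34, 7.90 and 7.55 in anterior and 7.84, 7.34 and 7.27 in posterior samples. Anterior minus posterior was 0.36 ± 0.21 in Lhx1epiCKO embryos (-0.09 to 0.81; limma, adjusted p = 0.512) and 0.45 ± 0.21 in control embryos (-0.01 to 0.90; limma, adjusted p = 0.397). The mutant difference was 0.18 without both doubted arrays (limma, adjusted p = 0.737) and ran from 0.18 to 0.49 when single arrays were left out. The regions overlapped in both genotypes, and both intervals hold 0 as well as the size of the Gata5 differences.

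Groups that did not overlap, with anterior higher, were found for 2 of 6 GATA probes in Lhx1epiCKO embryos (Gata1 and Gata5), where 10.6% of all probes did so. In control embryos it was again 2 of 6 (Gata5 and Gata6), where 13.3% of all probes did so. Gata1 and Gata5 reached the filter on dim probes only with their anterior arrays, which limits these counts. All 6 GATA differences had a positive sign in both genotypes, where 9027 and 9318 of 17041 probes did. The mean over Gata4 to Gata6 was 0.43 in Lhx1epiCKO and 0.35 in control embryos, and over Gata1 to Gata3 it was 0.33 and 0.23. The region differences of the heart and endoderm members ranged from 0.05 to 0.77, those of the blood and ectoderm members from 0.10 to 0.45. The sets therefore overlapped, and Gata5 alone lay above the range of the blood and ectoderm members. No test was run between the sets, which hold 3 genes each.

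By group mean, Gata5 was highest in anterior control, then in anterior Lhx1epiCKO; both posterior groups were below background on every array and have no order. Its means were 7.32 ± 0.17 in anterior Lhx1epiCKO, 7.39 ± 0.14 in anterior control, 6.55 ± 0.08 in posterior Lhx1epiCKO and 6.70 ± 0.05 in posterior control samples (SD, n = 3 each). Neighbours within a region did not differ by the test, and the groups on either side of the regional step did not overlap. Gata6 had means of 10.45 ± 0.17, 10.42 ± 0.15, 10.11 ± 0.21 and 10.11 ± 0.09 in the same 4 groups, so neighbours within a region did not differ beyond their spread. The Gata4 means were 7.0 ± 0.11 in anterior Lhx1epiCKO, 7.21 ± 0.06 in anterior control, 6.83 ± 0.13 in posterior Lhx1epiCKO and 7.16 ± 0.09 in posterior control samples, so by mean both control groups stood above both mutant groups. For Gata1 the means were 7.02 ± 0.09, 6.91 ± 0.10, 6.71 ± 0.12 and 6.78 ± 0.10 in the same groups. Gata2 averaged 9.42 ± 0.20, 9.03 ± 0.35, 9.09 ± 0.27 and 8.93 ± 0.21, and Gata3 averaged 7.83 ± 0.08, 7.93 ± 0.40, 7.47 ± 0.32 and 7.48 ± 0.31. For these 3 genes no neighbours in the order of means differed beyond their spread.

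Lhx1epiCKO embryos were then set against control embryos of the same region to ask whether GATA levels differ where Lhx1 is missing from the epiblast. No GATA factor passed the test in either region. In anterior samples 0 of 6 were called by limma, where 0.0704% of all probes were, and 0 had an unadjusted p under 0.05, as 1.93% of all probes did. In posterior samples 0 of 6 were called, where 0% of all probes were, and 1, Gata4, had an unadjusted p under 0.05, as 9.64% of all probes did. The member with the lowest unadjusted p (limma) was Gata4. The posterior Gata4 values given above lay lower in every mutant pool than in any control pool. Its difference was -0.33 ± 0.10 in posterior samples (-0.55 to -0.10; unadjusted p = 0.00788; limma, adjusted p = 0.497). Lhx1, the deleted gene, did not pass in this fit either. It was at -1.41 in anterior (limma, adjusted p = 0.344) and -0.82 in posterior samples (limma, adjusted p = 0.504). Without both doubted arrays Lhx1 passed in both regions, at -1.41 (limma, adjusted p = 0.000268) and -1.43 (limma, adjusted p = 0.00481). The lack of a GATA call therefore does not show equal levels.

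In anterior samples the Gata4 values again did not overlap, with every mutant pool below every control pool, and the difference was -0.21 ± 0.10 (-0.43 to 0.02; limma, adjusted p = 1). Gata4 was above background on 3 anterior Lhx1epiCKO, 3 anterior control, 1 posterior Lhx1epiCKO and 3 posterior control arrays. Averaged over both regions, again a contrast added after the values were seen, Gata4 was at 6.92 in Lhx1epiCKO and 7.18 in control samples, a difference of -0.27 ± 0.07 (unadjusted p = 0.00311; limma, adjusted p = 0.654), and 0 of 6 GATA probes were called where 0.00587% of all probes were. It stayed between -0.30 and -0.23 in all alternatives and passed in none of them. Without both doubted arrays the posterior Gata4 difference was -0.35.

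Groups that did not overlap, with the mutant lower, were found for 1 of 6 GATA probes in anterior samples (Gata4), where 6.48% of all probes did so. In posterior samples it was 2 of 6 (Gata4 and Gata5), where 4.68% of all probes did so. For Gata5 both posterior groups were below background, so its -0.16 ± 0.11 has no fold. The anterior Gata5 difference was -0.08 ± 0.11 (-0.32 to 0.16; limma, adjusted p = 1). The summed intensity of 14 visceral endoderm markers, a tissue that expresses Gata4 and Gata6, was 34105 to 70629 in posterior Lhx1epiCKO and 70292 to 77842 in posterior control samples. The low end was posterior Lhx1epiCKO replicate 3 alone, and the other 2 mutant pools were at 67318 and 70629. In replicate 3 Apoa1 read 7.2, against 13.6 and 13.7 in those pools, and Apob and Apoe were also lower. Amn, at 13.75 against 13.56 and 13.43, and Afp, at 9.29 against 8.51 and 7.89, were higher there. The summed intensity thus does not stand for all 14 markers. In anterior samples it was 70373 to 71141 in Lhx1epiCKO and 64956 to 73302 in control samples. Of the 15 visceral endoderm markers on the array Fgb was above background on no array, and the part of this tissue in the Gata4 values was not tested.

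Gata6 gave no called genotype difference, with 0.02 ± 0.13 in anterior samples (-0.26 to 0.31) and -0.0018 ± 0.13 in posterior samples (-0.28 to 0.28). Among the blood and ectoderm members, Gata2 gave the widest gap, 0.38 ± 0.19 in anterior samples (-0.02 to 0.79; limma, adjusted p = 1) and 0.15 ± 0.19 in posterior samples (limma, adjusted p = 0.793). Anterior control replicate 3, at 9.41, lay among the mutant values. With array weights the anterior Gata2 difference was 0.49 and passed (limma, adjusted p = 0.0209); over all alternatives its adjusted p ran from 0.0209 to 1. The posterior Gata2 difference was 0.40 without both doubted arrays (limma, adjusted p = 0.469).

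Gata1 differed by 0.11 ± 0.10 in anterior and -0.07 ± 0.10 in posterior samples, and Gata3 by -0.10 ± 0.21 and -0.01 ± 0.21. The mean genotype difference was -0.09 over Gata4 to Gata6 and 0.13 over Gata1 to Gata3 in anterior samples. In posterior samples it was -0.16 and 0.03. These means are carried by Gata4 and Gata2, and the sets overlapped in range. The difference between the genotype effects of the 2 regions was called for 0 of 6 GATA probes and 0% of all probes, with 3.41% of all probes at an unadjusted p under 0.05. For the 6 genes it lay between -0.09 for Gata3 and 0.23 for Gata2 (limma, adjusted p from 0.981 to 0.997).

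**Figure D2:**
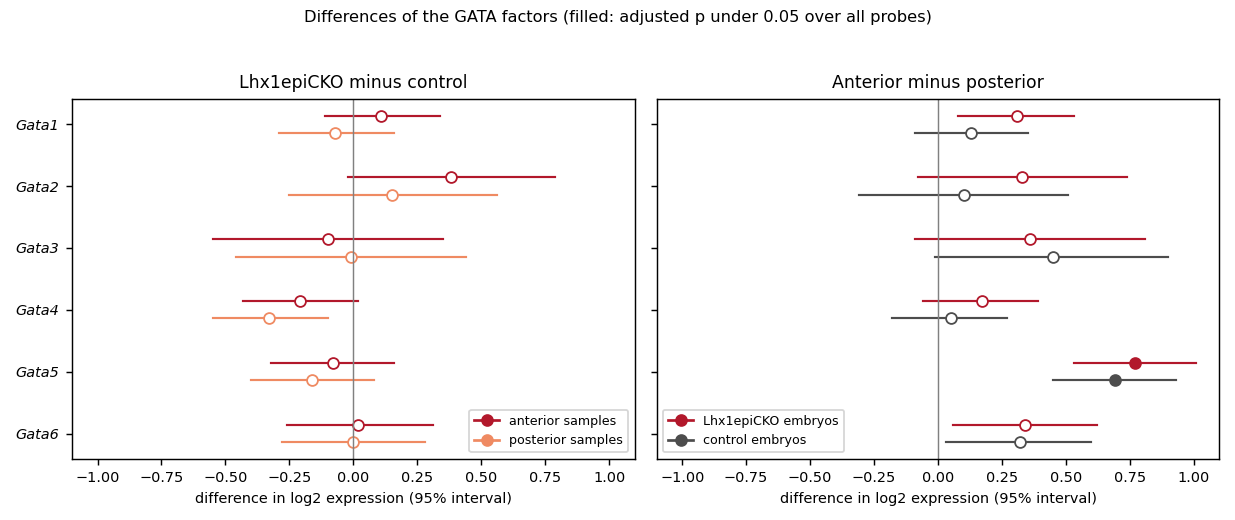
Differences in log2 expression of the 6 GATA genes with 95% intervals, Lhx1epiCKO minus control on the left and anterior minus posterior on the right. Filled points passed an adjusted p of 0.05 over all probes; these are the 2 region differences of Gata5.

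Genes of the tissues in which each GATA factor works were measured in the same fit, taking the brightest probe of each gene. Heart field markers included members that were higher in anterior samples of both genotypes and none that was called lower within a genotype. Of 12 tested, 4 were higher and 0 lower in anterior samples of Lhx1epiCKO embryos, with a median of 0.32, and 3 were higher and 0 lower in control embryos, with a median of 0.21. The difference was positive for 9 of 12 in mutants and 8 of 12 in controls. Over all 11394 genes tested the medians were 0.01 and 0.02, and 1.52% and 3.59% were called. The atrial myosin light chain Myl7 read 9.72, 9.43 and 9.67 in anterior and 7.22, 7.18 and 8.68 in posterior Lhx1epiCKO samples, and 9.74 to 10.39 in anterior and 7.06 to 7.84 in posterior control samples. It differed by 1.92 ± 0.34 in mutants (limma, adjusted p = 0.0116) and 2.5 ± 0.34 in controls (limma, adjusted p = 0.000861).

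Nkx2-5, a cardiac homeodomain factor and a partner of Gata4, differed by 0.62 ± 0.12 in Lhx1epiCKO (limma, adjusted p = 0.0265) and 0.39 ± 0.12 in control embryos (limma, adjusted p = 0.145). Mef2c, another partner in heart muscle, was higher in anterior samples by 0.81 in Lhx1epiCKO and 0.78 in control embryos. The atrial light chain Myl4 passed in mutants at 0.76, and the chromatin remodelling subunit Smarcd3 passed in controls at 0.57. The basic helix-loop-helix factors Hand1 and Hand2 did not pass: Hand1 was at -0.15 and -0.38, Hand2 at 0.04 and 0.04. Mesp1, a factor of the earliest cardiac mesoderm, was at -1.06 in mutants (limma, adjusted p = 0.367) and -1.47 in controls (limma, adjusted p = 0.13), and averaged over both genotypes it was lower in anterior samples by -1.27 (limma, adjusted p = 0.0356). Hand1 was at -0.09 in mutants without both doubted arrays. Tbx5 and Nppa were above background on no array. Leaving out single arrays moved the count between 0 and 5 in Lhx1epiCKO embryos and between 1 and 5 in control embryos. In mutants it was 0 without anterior replicate 1 or 3 or posterior replicate 2, and in controls it was 5 without posterior Lhx1epiCKO replicate 3. No heart field marker was called between genotypes in either region, where the medians were 0.11 in anterior and -0.03 in posterior samples.

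Definitive endoderm markers gave 1 higher and 0 lower of 11 in anterior samples of Lhx1epiCKO embryos, with a median of 0.19, and 3 higher and 0 lower in control embryos, with a median of 0.31. Among all genes tested, 1.52% were called in mutants and 3.59% in controls. Cer1, a secreted inhibitor made by anterior endoderm, differed by 1.07 ± 0.21 in mutants (limma, adjusted p = 0.0262) and 2.27 ± 0.21 in controls (limma, adjusted p = 3.94e-05). Foxa1 was at 0.19 in mutants and passed in controls at 0.57, and Trh was at 0.33 in mutants and passed in controls at 1.29. Trh passed in mutants too without both doubted arrays, at 0.58 (limma, adjusted p = 0.0483), and was then at 1.13 in controls. Sox17 was at 0.54 in mutants and 0.43 in controls, and Foxa2 at 0.17 and 0.44, without passing. The Sox17 difference in mutants was 0.08 without both doubted arrays and ran from 0.08 to 0.89 when single arrays were left out. The single call in mutants, Cer1, held in 14 of 21 alternatives, while Cer1 in controls held in all of them. Of 14 visceral endoderm markers, 0 were called in Lhx1epiCKO embryos, with a median of 0.45, and 1, Cited1 at -0.55, was lower in anterior samples of control embryos, with a median of 0.06. That call was lost in 8 of the 12 fits that left out a single array.

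**Figure D3:**
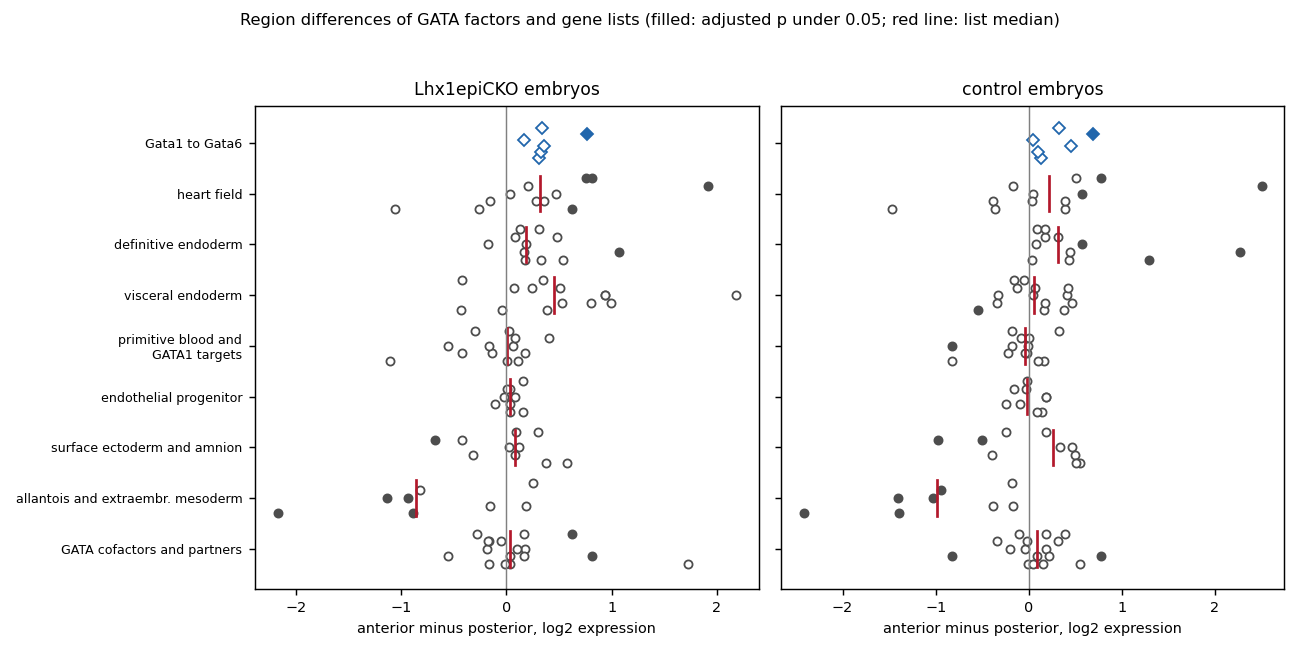
Anterior minus posterior differences in log2 expression for the 6 GATA genes (diamonds) and for each gene of 8 lists (circles), in Lhx1epiCKO embryos on the left and control embryos on the right. Filled symbols passed an adjusted p of 0.05 and red lines are list medians, such as 0.32 and 0.21 for the heart field markers.

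Primitive blood markers, among which are targets of GATA1, gave no member called higher in anterior samples, although 7 of 13 differences in mutants and 3 of 13 in controls were positive. Of 13 tested, 0 were called between regions in Lhx1epiCKO embryos, with a median of 0.01, and 1, Lmo2, was lower in anterior samples of control embryos, with a median of -0.04. Lmo2, an adaptor that bridges GATA factors to Tal1, differed by -0.55 ± 0.20 in mutants (limma, adjusted p = 0.295) and -0.82 ± 0.20 in controls (limma, adjusted p = 0.0493). The call in controls held in 8 of 21 alternatives. Lmo2 without both doubted arrays passed in both genotypes, at -0.74 in mutants (limma, adjusted p = 0.033) and -0.67 in controls (limma, adjusted p = 0.0391). The embryonic globin Hbb-bh1 read 9.02, 9.39 and 9.55 in anterior and 11.07, 10.06 and 10.12 in posterior Lhx1epiCKO samples, and 8.11, 8.01 and 8.19 in anterior and 8.54, 10.1 and 8.13 in posterior control samples. Anterior minus posterior was -1.1 ± 0.40 in mutants and -0.82 ± 0.40 in controls, without passing. With both doubted arrays left out it was -1.24 in mutants, which passed (limma, adjusted p = 0.00928), and -0.24 in controls (limma, adjusted p = 0.648). In these fits its differences had the opposite sign to those of Gata1.

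Between genotypes no primitive blood marker was called, but 11 of 13 in anterior and 12 of 13 in posterior samples had a positive difference, with medians of 0.25 and 0.24 against 0.00 over all genes tested. Hbb-bh1 differed by 1.22 ± 0.40 in anterior (limma, adjusted p = 1) and 1.49 ± 0.40 in posterior samples (limma, adjusted p = 0.481). Without both doubted arrays these were 1.22 (limma, adjusted p = 0.0204) and 2.23 (limma, adjusted p = 0.00481). The array labelled posterior control replicate 2, at 10.1, was level with the mutant pools. The other embryonic globins did not pass, with Hba-x at -0.01 and 0.39 and Hbb-y at 0.27 and 0.04. The summed intensity of the 13 markers was 6245 to 6376 in anterior Lhx1epiCKO and 5343 to 5610 in anterior control samples. It was 5211 to 9066 in posterior Lhx1epiCKO and 5669 to 8076 in posterior control samples. Bright probes weigh most in such a sum. The haem enzyme gene Alad, a bright member, read 9.78 in posterior Lhx1epiCKO replicate 3, against 11.35 and 11.42 in its group mates. Slc4a1 and Hemgn were above background on no array. The part of blood cells in the anterior Gata1 and Gata2 values was not tested. None of 9 endothelial progenitor markers was called between regions within a genotype or between genotypes within a region, with medians from -0.02 to 0.04. In the region contrast over both genotypes the median was 0.07, again with 0 called.

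Surface ectoderm and amnion markers, the tissue of Gata3 at this stage, had members on both sides, with medians of 0.09 and 0.26 and positive differences for 7 and 6 of 10 in mutants and controls. Of 10 tested, 0 were higher and 1, Wnt6, was lower in anterior samples of Lhx1epiCKO embryos. In control embryos 0 were higher and 2, Wnt6 and Msx2, were lower. Wnt6, an ectodermal WNT ligand, differed by -0.68 in mutants and -0.97 in controls, and Msx2, a BMP-responsive homeodomain factor, by -0.42 and -0.50. Tfap2a, an early factor of non-neural ectoderm, was at 0.58 (limma, adjusted p = 0.0901) and 0.55 (limma, adjusted p = 0.0701). Averaged over both genotypes Tfap2a was higher in anterior samples by 0.56 (limma, adjusted p = 0.00526), and so was Grhl2, an epithelial transcription factor, by 0.45 (limma, adjusted p = 0.0136). In the same average 3 members were called lower in anterior samples: Msx2 at -0.46, Grhl3 at -0.35 and Wnt6 at -0.83. The keratin Krt8 was at 0.08 and 0.50 and Krt18 at 0.03 and 0.46, without passing. Krt8 without both doubted arrays was at 0.34 in mutants and passed in controls at 0.55 (limma, adjusted p = 0.00882), while Krt18 was at 0.21 and 0.14. The Wnt6 call in mutants held in 9 of 21 alternatives. The count of 2 in controls became 6 when posterior Lhx1epiCKO replicate 3 was left out, and 1 when the array labelled posterior control replicate 2 was. The summed intensity of 7 trophoblast markers, another tissue of Gata2 and Gata3, was 3522 to 4579 in anterior and 7876 to 10253 in posterior Lhx1epiCKO samples. It was 2628 to 3407 in anterior and 7002 to 11253 in posterior control samples. That step lay in Cdx2, which posterior embryonic tissue also expresses and which was lower in anterior samples by -2.03 in mutants and -3.12 in controls. Without Cdx2 the sum was 2101 to 2375 in anterior and 1209 to 2198 in posterior Lhx1epiCKO samples, and 1977 to 2426 in anterior and 1984 to 2417 in posterior control samples. Cdx2 was the 1 member called in each genotype, and the list medians were 0.09 and 0.00. Elf5, a trophoblast transcription factor, was at 1.01 and 1.35 without passing, and at 1.18 over both genotypes (limma, adjusted p = 0.032). The trophoblast markers Esx1 and Prl3d1 were above background on no array, and their tissue's part in the Gata2 and Gata3 values was not tested.

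Allantois and extraembryonic mesoderm markers were lower in anterior samples, with 4 of 8 called in Lhx1epiCKO and 5 of 8 in control embryos and none higher. Among all genes tested, 1.52% and 3.59% were called in these contrasts. Tbx4, a T-box factor of the allantois, was at -2.17 and -2.42. Bmp4, a ligand that induces several GATA genes, read 10.13, 10.26 and 10.34 in anterior and 10.76, 11.35 and 11.41 in posterior Lhx1epiCKO samples, and it differed by -0.93 in mutants and -1.03 in controls. No GATA factor had a negative region difference in either genotype, though only Gata5 passed. The Gata2 difference in control embryos ran from -0.09 to 0.26 when single arrays were left out. The part of Bmp4 in the GATA values was not tested.

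Most cofactors and partners of the GATA proteins were not called between regions. Of 17 tested, 2 were higher and 0 lower in anterior samples of Lhx1epiCKO embryos (Nkx2-5 and Mef2c), with a median of 0.04. In control embryos 1 was higher (Mef2c) and 1 lower (Lmo2), with a median of 0.09. Leaving out single arrays moved both counts between 0 and 3. Among all genes tested, 1.52% were called in Lhx1epiCKO and 3.59% in control embryos. Zfpm1, the cofactor FOG1 that binds GATA1, differed by 1.73 ± 0.73 in Lhx1epiCKO (limma, adjusted p = 0.354) and 0.55 ± 0.73 in control embryos (limma, adjusted p = 0.85). Leaving out single arrays moved the mutant value between 0.48 and 2.43, and without both doubted arrays it was 0.48. Tal1, a blood factor that works beside GATA1, was at 0.18 in mutants and -0.04 in controls. Of 6 other genes with a GATA-type zinc finger, such as Trps1 and Mta2, none was called in the region or genotype contrasts.

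Profiles over the 12 arrays were compared by Pearson correlation, and for each GATA gene the 3 most similar genes are given as a description. The arrays share regions and genotypes, so a correlation holds both group differences and array-to-array spread. Gata5 was followed most closely by Snai2 (0.96), Irx5 (0.96) and Elavl3 (0.96). Snai2, a zinc finger repressor, averaged 7.92 in anterior and 7.08 in posterior Lhx1epiCKO samples and 8.09 in anterior and 7.28 in posterior control samples, which is the same regional step. Taken as deviations from the group means, those correlations were 0.60, 0.37 and 0.24, so for Gata5 the likeness lay mostly in the groups.

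Gata6 was most like Prune2 (0.92), Osr2 (0.91) and Tal2 (0.90), with 0.86, 0.78 and 0.79 on deviations from group means. Osr2, a zinc finger factor of the odd-skipped family, read 7.37 in posterior Lhx1epiCKO replicate 3, the highest posterior value, as was also the case for Gata6. Gata4 was most like Scmh1 (0.92), 4933427D14Rik (0.91) and Apbb2 (0.90). Scmh1, a Polycomb-group protein, averaged 7.41 in anterior Lhx1epiCKO, 7.67 in anterior control, 7.16 in posterior Lhx1epiCKO and 7.48 in posterior control samples, with the same order of groups as Gata4.

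Of the blood and ectoderm members, Gata3 was most like Urah (0.93), Inf2 (0.92) and Tmem184a (0.90), and these held on deviations from group means at 0.93, 0.90 and 0.90. The shared pattern was thus one of single pools, led by anterior control replicate 1, where Gata3 read 8.34 and Urah 8.73. Gata2 was most like Slc32a1 (0.87), Mbnl2 (0.86) and Cort (0.82), with 0.79, 0.84 and 0.71 on deviations from group means. Gata1 was most like Klhl21 (0.88), Slc2a6 (0.88) and Taf1 (0.88), with 0.64, 0.86 and 0.74 on deviations. The group means of Slc2a6 (6.68 to 6.80), Taf1 (6.74 to 6.90) and Cort (6.70 to 6.86) lay near the floor, as did those of Gata1. Their correlations therefore rest on signals near background. No gene appeared in the lists of 2 GATA factors. Without posterior Lhx1epiCKO replicate 3 the correlations of these 18 genes were between 0.80 and 0.97.

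**Figure D4:**
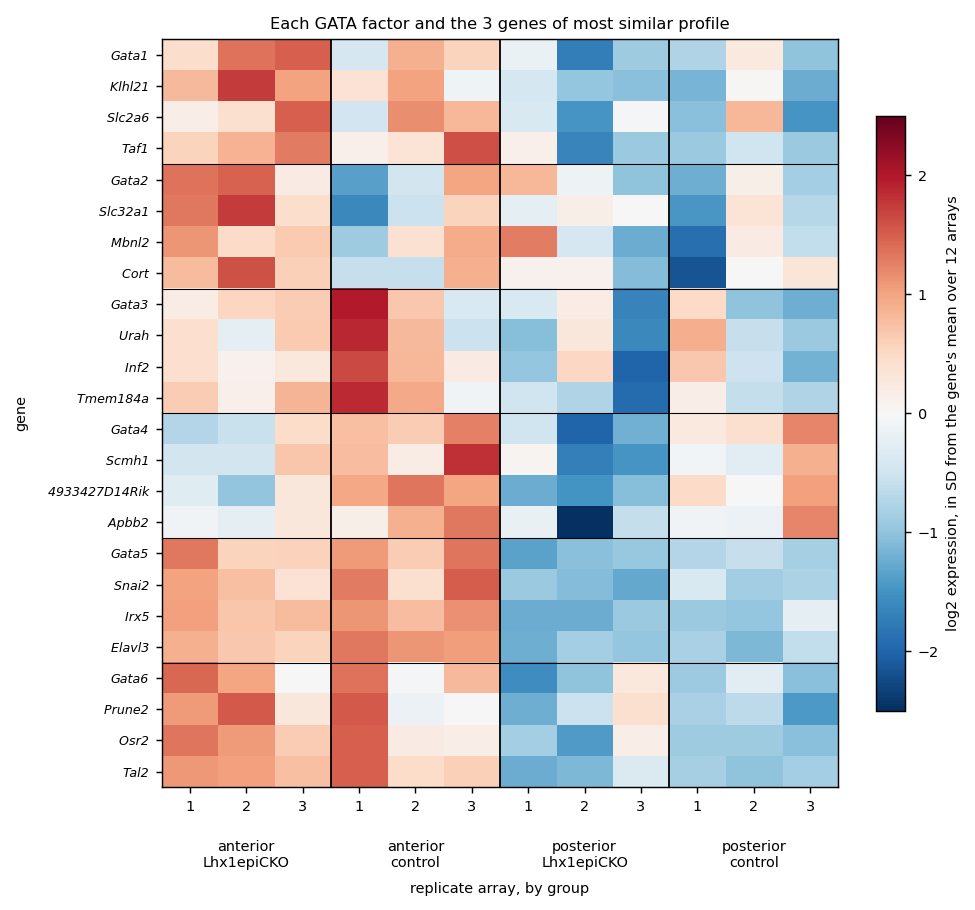
Heat map of each GATA gene and its 3 most similar genes over 12 arrays, with arrays by group along the horizontal axis and colour giving log2 expression in SD from the gene's mean. Gata5 and its neighbours split by region, while Gata3 and its neighbours peak together in anterior control replicate 1.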

How the data were processed

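Per the file headers and the submitters' processing notes, the authors deposited normalised log2 values, and beside each value its detection p-value. The notes name GenomeStudio and limma without version or role, and the background correction and normalization are not given in the sources used here. Array medians lay between 6.81 and 6.83 log2, and both deposited tables held the same values. Of the value columns, 0 were unmapped.

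Groups were taken from the sample titles. One mean per group was fitted on all 12 arrays with limma 3.58.1 in R 4.3.3 (lmFit, contrasts.fit, eBayes; 8 residual and 4.87 prior degrees of freedom), for probes that 3 or more arrays gave a detection p below 0.05. P-values were two-sided and adjusted by Benjamini-Hochberg over all 17041 probes tested, at a threshold of 0.05. A group above background on no array was given a bound against the lowest signal above background, 6.77 to 6.87 log2. Named were all GATA probes, the first 3 measured genes of each list, called list members, the 3 genes nearest each GATA gene in profile and Lhx1. The gene names of all 6 GATA probes match GEO's platform annotation. The members, lists and alternatives were chosen with earlier results of these data known. The fit was tested on simulated data. Replicate numbers do not pair the samples: of 18 same-numbered pairs, the correlation of deviations from group means exceeded 0.1 in 2, over a range of -0.041 to 0.246. Of the other lists, 10 neuroectoderm genes gave 3 higher and 1 lower in anterior Lhx1epiCKO samples, and 5 higher and 1 lower in anterior control samples. For 9 BMP signalling genes it was 0 higher and 2 lower, then 1 higher and 3 lower. Of 4 maternal decidua genes tested, 0 were called in either genotype. Over all genes tested, 1.52% were called between regions in Lhx1epiCKO and 3.59% in control embryos.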

Additional observations from a re-analysis of the deposited data

How the results depend on the processing

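The fits were repeated under 21 alternatives, 12 of which left out single arrays; the others changed the filter on dim probes, the arrays in the fit, the replicate block, array weights, the normalization and an offset. Of 141 counts of called GATA probes, 136 stayed the same. With array weights the anterior genotype contrast called 1 GATA probe, Gata2, against 0. With only the arrays of the groups compared, the region contrast in Lhx1epiCKO embryos called 0, against 1. Over both genotypes the region contrast called 2, Gata5 and Gata6, with array weights, without both doubted arrays or without posterior Lhx1epiCKO replicate 3; leaving out single arrays gave 1 to 2. The cause of these changes was not tested. Leaving out single arrays also gave 0 GATA probes in the anterior and posterior genotype contrasts and 1 in each region contrast within a genotype. Replicate blocks, on number or on genotype and number, left every GATA call fitted with them as it was. With the block on number the Gata5 region difference was 0.77 in Lhx1epiCKO (limma, adjusted p = 0.00826) and 0.69 in control embryos (limma, adjusted p = 0.00877). With the block on genotype and number it was again 0.77 (limma, adjusted p = 0.0225) and 0.69 (limma, adjusted p = 0.0252). Of 12 arrays, 8 correlated best with their own number in the other region of their genotype.

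Of 846 GATA differences, 807 stayed the same and 34 changed sign, each from a value that had not passed. With array weights the Gata5 anterior genotype difference was 0.10, that of Gata3 in posterior samples 0.09 and that of Gata1 over both regions -0.01. Without both doubted arrays Gata3 in posterior samples was at 0.09, Gata6 over both regions at -0.02 and the Gata2 difference of genotype effects at -0.02. Leaving out single arrays gave these ranges where a sign changed. Genotype differences in anterior samples ran from -0.29 to 0.11 for Gata3, from -0.06 to 0.12 for Gata6 and from -0.07 to 0.08 for Hba-x. In posterior samples they ran from -0.15 to 0.17 for Gata3, from -0.12 to 0.09 for Gata6 and from -0.16 to 0.23 for Hbb-y. Over both regions they ran from -0.0047 to 0.06 for Gata1, from -0.15 to 0.05 for Gata3 and from -0.05 to 0.06 for Gata6. The difference of genotype effects ran from -0.28 to 0.12 for Gata3, from -0.02 to 0.15 for Gata5 and from -0.06 to 0.14 for Gata6. Region differences in Lhx1epiCKO embryos ran from -0.05 to 0.35 for Foxa2, from -0.08 to 0.15 for Hand2, from -0.05 to 0.34 for Krt8, from -0.06 to 0.21 for Krt18 and from -0.10 to 0.25 for Hbb-y. In control embryos they ran from -0.09 to 0.26 for Gata2, from -0.13 to 0.08 for Tal1, from -0.11 to 0.07 for Hba-x and from -0.34 to 0.02 for Hbb-y. Without both doubted arrays Tal1 was at 0.08 and Hbb-y at 0.02 in control embryos. With array weights Hba-x was at 0.06 in anterior samples and Hbb-y at -0.07 in posterior samples between genotypes.

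Probes called over the whole array were 12 in the anterior genotype contrast (2 to 246 under the alternatives), 0 in the posterior one (0 to 4), 0 for the difference of genotype effects (0 to 3), 216 between regions in Lhx1epiCKO (64 to 425) and 513 in control embryos (276 to 1013). Over both regions 1 was called between genotypes (0 to 35), and over both genotypes 968 between regions (583 to 1579). The mean over several probes of a gene was not run, since each GATA gene has 1 probe. Signal near background limits Gata1, Gata4 and Gata5.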
